A study of Mus musculus with 2 samples.

Results

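The Fanconi, recombination and mismatch repair genes described here are 37 named genes, taken by symbol out of 43346 gene entries. They fall into 9 groups by role: the Fanconi core complex with its conjugating enzyme, the clamp it modifies, a nuclease scaffold, the BRCA group, the paralogues Rad51b, Rad51c, Rad51d, Xrcc2 and Xrcc3, a translocase and a helicase, the break sensor, the checkpoint kinases, and mismatch repair. The data are 2 paired-end sequencing libraries of polyadenylated RNA from G1E, an immortalised mouse line whose labels give a male, postnatal source of age 0 days and describe the cells as Gata1- erythroid progenitors. The libraries carry the replicate numbers 2 and 1 and cite 1 shared biosample, so the difference between them may be technical, and no treatment or second cell type is compared. The tables held 80658648 expected counts (estimated read pairs) for replicate 2 and 61982634 for replicate 1. Erythroid progenitor markers reached 1 TPM in 6 of 6 cases, from 110 to 941 TPM in replicate 2 and from 83.3 to 1086 TPM in replicate 1. Gata1 itself was listed at 46.6 TPM in replicate 2 and 48.0 TPM in replicate 1, and a gene total does not show whether those transcripts are intact.

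The Fanconi pathway detects DNA strands that are covalently joined, and its core complex attaches ubiquitin to the FANCD2-FANCI clamp so that nucleases and recombination proteins can act. Homologous recombination repairs breaks by copying an intact sister strand, a process that needs BRCA2 and PALB2. Mismatch repair corrects replication errors through MutS and MutL heterodimers, and inherited loss of Fanconi genes is known for failure of blood formation.

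Of the 37 genes, 29 were detected, meaning that they reached 1 TPM (a level per transcript length, scaled to the library total) in both libraries. Of 21474 protein-coding genes, 40.0% did so. The 5 genes below 1 TPM in both libraries were Fancb, Fanci, Rad51b, Rad51c and Mlh3, and Fancl, Brip1 and Pms2 reached it in replicate 2 and not in replicate 1. The median level of the 37 genes was 6.99 TPM in replicate 2 and 4.18 TPM in replicate 1, a mean of 5.58 ± 1.99 (SD, n = 2). For detected protein-coding genes the median was 19.0 TPM in replicate 2 and 17.0 TPM in replicate 1. Most of the repair genes were present at modest levels: 15 reached 10 TPM in both libraries, 2 reached 30 TPM in both, and together the 37 held 0.0741% ± 0.00679 of all expected counts (SD, n = 2).

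A gene's TPM sums over all of its annotated transcripts, whatever they encode, and in some of these genes the sum was far from the level of the coding transcripts. Transcripts of protein-coding type held 235 of the summed 442 TPM in replicate 2 and 197 of the summed 354 TPM in replicate 1. In 11 of the 37 genes they held under 50% of the gene's TPM as a mean of the libraries: Fanca, Fance, Slx4, Brca1, Brip1, Rad51c, Rad50, Atr, Atrip, Msh3 and Pms2. Of the 29 detected repair genes 8 were of this kind, beside 19.6% of all detected protein-coding genes. By shares of expected counts, which carry no length, 7 of the 37 genes were under 50%, and 5 of the 29 detected ones, beside 11.7% of all detected protein-coding genes. With decay targets (transcripts annotated as degraded for an early stop codon) added to the coding ones, the count by TPM was also 7 of 37. Among detected genes with 4 or more annotated transcripts, the figures were 8 of 21 repair genes and 31.4% of all. The median level on coding transcripts was 2.42 TPM in replicate 2 and 2.20 TPM in replicate 1, a mean of 2.31 ± 0.156 (SD, n = 2). Across the 37 genes, mean gene TPM and mean coding TPM had a Spearman correlation of 0.80, where the genes share their libraries and are not independent replicates. Coding levels are given beside gene levels for the genes where they part most, with transcript types taken from a later annotation than the one the tables were made with.

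**Figure D1:**
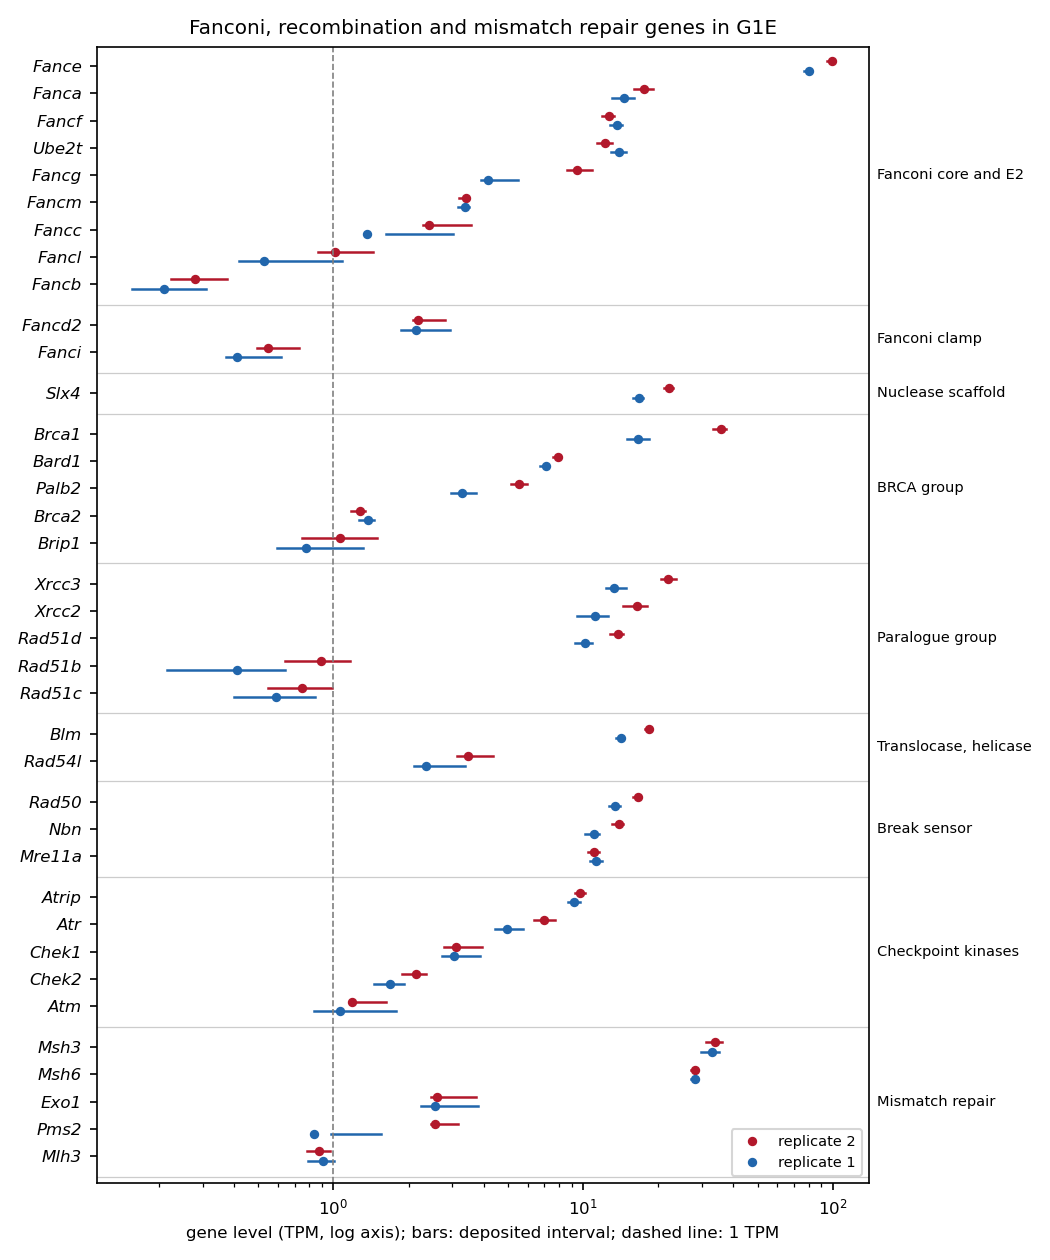
Gene level in TPM (log axis) of the 37 genes by role, with replicate 2 in red above replicate 1 in blue; bars are the intervals the authors deposited. Fance has the highest level with 98.95 and 80.32 TPM, and Fancb the lowest with 0.28 and 0.21 TPM. The level is higher in replicate 2 than in replicate 1 in the 15 genes whose bars do not overlap.

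**Figure D2:**
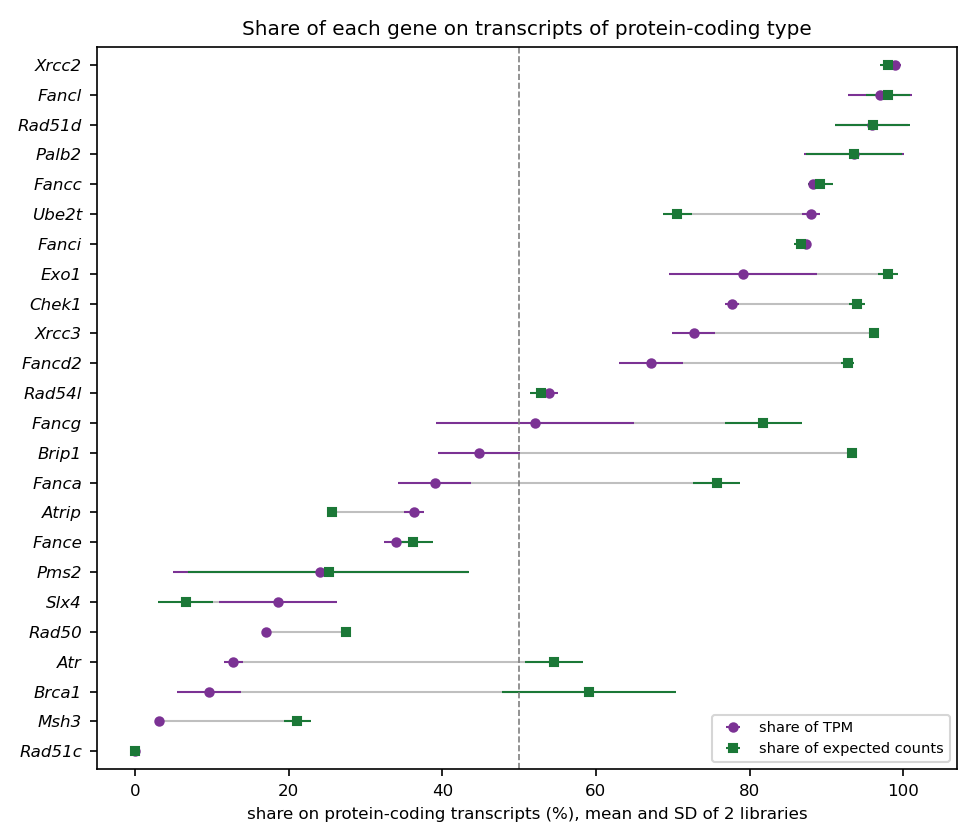
Share of each gene's TPM (circles) and of its expected counts (squares) on protein-coding transcripts, in percent, mean and SD of the 2 libraries, for genes not wholly on coding transcripts; the dashed line is 50%. The circles of Brca1, Atr and Brip1 lie far left of their squares, while Rad50, Fance and Atrip are below 50% on both scales.

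Levels spread most widely in the Fanconi core complex, whose subunits act together. Fance, the subunit that bridges the core complex and the clamp, was the highest of the 37 genes at 98.95 TPM in replicate 2 and 80.32 TPM in replicate 1. Fancb, a scaffold of the catalytic module encoded on the X chromosome, was the lowest at 0.28 TPM in replicate 2 and 0.21 TPM in replicate 1, from 56 and 33 expected counts. The ratio of Fance to Fancb was 353 in replicate 2 and 382 in replicate 1 by gene TPM, and 124 and 126 by coding TPM. On coding transcripts Fance averaged 30.5 ± 5.80 TPM (SD, n = 2), the highest mean of the 37 genes. In replicate 1 its 26.4 TPM stood below the 28.0 TPM of Msh6. Of the coding level of Fance, 15.11 TPM in replicate 2 and 7.31 TPM in replicate 1 lay on Fance-213, of 542 bases. The longest coding transcript, Fance-203, held 17.06 and 12.42 TPM. The leading transcript of the gene, Fance-201, is annotated as a target of nonsense-mediated decay, and held 32.39 TPM in replicate 2 and 37.41 TPM in replicate 1. That transcript has 1581 bases in the deposited tables and 1942 bases in the annotation used for types, so its type may not apply to the model that was counted.

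Fancl, the ubiquitin ligase subunit, was at 1.02 TPM in replicate 2 and 0.53 TPM in replicate 1. Ube2t, the conjugating enzyme that works with it, was at 12.29 TPM in replicate 2 and 13.97 TPM in replicate 1. The ligase was the scarcer of the pair in both libraries, and its deposited interval lay below that of Ube2t in each. Fanca, a structural subunit, was at 17.51 TPM in replicate 2 and 14.55 TPM in replicate 1 as a gene, and at 6.24 and 6.17 TPM on coding transcripts. Its leading transcript in replicate 2 was Fanca-206, a short processed transcript of 667 bases. Fanca-206 was at 6.43 TPM in replicate 2 and 5.17 TPM in replicate 1, and its exons overlap Zfp276 on the other strand. The expected counts of Fanca were whole numbers, 2604 in replicate 2 and 1921 in replicate 1. Whether strand was used in the counting was not tested. The coding level of Fanca varied less between the libraries (6.21 ± 0.0495 TPM) than its gene level did (16.0 ± 2.09 TPM, SD, n = 2 each).

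Fancf, an adaptor subunit with 1 exon and 1 transcript, was at 12.74 TPM in replicate 2 and 13.70 TPM in replicate 1. Fancm, the translocase that anchors the complex to DNA, was at 3.39 TPM in replicate 2 and 3.37 TPM in replicate 1. Fancc, of the same module as Fance and Fancf, was at 2.42 TPM in replicate 2 and 1.36 TPM in replicate 1. The Fancm and Fancf levels hardly moved between the libraries, while the Fancc value of replicate 1 fell outside its own deposited interval of 1.63 to 3.02 TPM, as in 5.61% of detected protein-coding genes in at least 1 library. Fancg, a partner of Fanca, was at 9.49 TPM in replicate 2 and 4.18 TPM in replicate 1. Part of that gap sat in Fancg-206, a processed transcript of 357 bases at 4.40 TPM in replicate 2 and 1.04 TPM in replicate 1, beside 4.08 and 2.57 TPM on the coding transcript Fancg-201.

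The clamp genes were low. Fancd2, the subunit whose ubiquitination marks pathway activation, was at 2.19 TPM in replicate 2 and 2.14 TPM in replicate 1, and Fanci, its partner in the clamp, was at 0.55 TPM in replicate 2 and 0.41 TPM in replicate 1. Fancd2 exceeded Fanci 3.98-fold in replicate 2 and 5.22-fold in replicate 1 by gene TPM, although their proteins act as a heterodimer. On coding transcripts Fancd2 had 1.40 TPM in replicate 2 and 1.50 TPM in replicate 1, and exceeded Fanci 2.92-fold and 4.29-fold. Slx4, the scaffold that brings structure-specific nucleases to the clamp, was at 22.17 TPM in replicate 2 and 16.74 TPM in replicate 1. Coding transcripts of Slx4 held 5.34 TPM in replicate 2 and 2.20 TPM in replicate 1, and 6.59% ± 3.59 of its expected counts (SD, n = 2). Most of that coding level lay on transcripts of 673 to 865 bases. The longest coding transcript, Slx4-201, held 0.33 TPM in replicate 2 and 0.06 TPM in replicate 1. The rest of the gene's TPM lay on retained-intron transcripts and decay targets. Slx4-202, a retained-intron transcript, was at 8.74 TPM in replicate 2 and 6.85 TPM in replicate 1. Slx4-205, a decay target of 14 exons, was at 4.58 and 3.65 TPM.

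In the BRCA group the choice of scale changed the order of the genes. Brca1, a ubiquitin ligase that directs breaks to recombination (ENSMUSG00000017146.8, mm10 chr11:101488764-101551955, minus strand), was at 35.55 TPM in replicate 2 and 16.55 TPM in replicate 1. Of this, 32.37 TPM in replicate 2 and 14.24 TPM in replicate 1 lay on Brca1-202, a retained-intron transcript of 539 bases and 3 exons from the middle of the gene. Coding transcripts held 2.37 TPM in replicate 2 and 2.08 TPM in replicate 1, which moved Brca1 from rank 4 to rank 20 of the 37 genes. Bard1, the obligate partner of BRCA1, has 1 transcript and was at 7.96 TPM in replicate 2 and 7.11 TPM in replicate 1. By gene TPM the ratio of Bard1 to Brca1 was 0.224 in replicate 2 and 0.430 in replicate 1, whereas by coding TPM it was 3.36 and 3.42, so the order of the partners turned round and the ratio varied less between the libraries.

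Coding transcripts of Brca1 held 51.1% of its 2054 expected counts in replicate 2 and 67.1% of its 1030 in replicate 1. A short transcript turns few read pairs into a high TPM: Brca1-202 had 896 expected counts in replicate 2 and 314 in replicate 1. Palb2, the bridge between BRCA1 and BRCA2, was at 5.54 TPM in replicate 2 and 3.27 TPM in replicate 1, and Brca2, which PALB2 brings to breaks, at 1.28 and 1.38 TPM. Brip1, a helicase that binds BRCA1, was at 1.06 TPM in replicate 2 and 0.78 TPM in replicate 1, with 0.510 and 0.320 TPM on its coding transcript. Its coding transcript carried 93.3% ± 0.566 of the expected counts but 44.8% ± 5.37 of the TPM (SD, n = 2 each). The ratio of Brca1 to Brca2 was 27.8 in replicate 2 and 12.0 in replicate 1 by gene TPM, and 1.85 and 1.51 by coding TPM.

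The paralogue group, which assists strand exchange, split into 3 detected and 2 low genes. Xrcc3 was at 21.90 TPM in replicate 2 and 13.31 TPM in replicate 1, of which 15.5 and 9.95 TPM lay on coding transcripts. Xrcc2 was at 16.44 TPM in replicate 2 and 11.15 TPM in replicate 1, and Rad51d, its direct partner, at 13.76 and 10.16 TPM. In Xrcc2, 12.38 TPM in replicate 2 and 9.6 TPM in replicate 1 lay on Xrcc2-204, of 464 bases. Xrcc2-201, of 3247 bases, held 3.78 and 1.49 TPM. By expected counts Xrcc2-201 held 828 of 1137 in replicate 2 and 258 of 435 in replicate 1. Xrcc3, Xrcc2 and Rad51d were each higher in replicate 2, with deposited intervals apart. Rad51b was at 0.89 TPM in replicate 2 and 0.41 TPM in replicate 1, from 43 and 19 expected counts, and Rad51c, which binds both Rad51b and Xrcc3 proteins, was at 0.75 and 0.59 TPM, from 52 and 31 expected counts. The Rad51c protein is a subunit of both known complexes of this group, and its gene was among the scarce ones.

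All of the Rad51c estimate fell on decay targets. Rad51c-203 held 0.62 TPM in replicate 2 and 0.51 TPM in replicate 1, and the coding transcripts were listed at 0 in both. The deposited posterior means gave coding transcripts 3.14% of the gene in replicate 2 and 4.32% in replicate 1, and a count of 0 allows up to 3 read pairs. The translocase and helicase genes ended the recombination set. Rad54l, a motor protein of strand exchange, was at 3.45 TPM in replicate 2 and 2.35 TPM in replicate 1, with 1.83 and 1.28 TPM on coding transcripts, and Blm, which dissolves joint molecules, at 18.34 and 14.15 TPM with all of it on coding transcripts.

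The break sensor is a complex of MRE11, RAD50 and NBN, and its genes had the narrowest spread of the groups of 3 or more by gene TPM. The highest exceeded the lowest 1.50-fold in replicate 2 and 1.22-fold in replicate 1. Mre11a, the nuclease, was at 11.04 TPM in replicate 2 and 11.31 TPM in replicate 1. Nbn, the signalling subunit, was at 13.89 TPM in replicate 2 and 11.08 TPM in replicate 1, and Rad50, the tethering subunit, at 16.52 and 13.47 TPM. That evenness was not seen on coding transcripts, where Rad50 had 2.82 TPM in replicate 2 and 2.31 TPM in replicate 1 and the ratio of Rad50 to Nbn was 0.203 and 0.208. The leading transcript Rad50-204, a decay target of 18 exons and 3085 bases, held 12.71 TPM in replicate 2 and 10.03 TPM in replicate 1, and 2640 and 1648 expected counts. Coding transcripts of Rad50 held 27.5% ± 0.495 of the expected counts (SD, n = 2).

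The checkpoint genes were all detected and mostly low. Atm, the kinase that answers breaks, was at 1.19 TPM in replicate 2 and 1.06 TPM in replicate 1. Atr, the kinase that answers stalled forks, was at 6.99 TPM in replicate 2 and 4.96 TPM in replicate 1 as a gene, and at 0.960 and 0.590 TPM on coding transcripts. It was the only one of the 29 detected genes below 1 TPM on coding transcripts in a library. Its leading transcript Atr-210 has 3 exons at the 5′ end of the gene and 982 bases, and held 5.74 TPM in replicate 2 and 4.08 TPM in replicate 1. Atrip, the partner that brings ATR to single-stranded DNA, was at 9.71 TPM in replicate 2 and 9.18 TPM in replicate 1, of which 3.61 and 3.25 TPM lay on coding transcripts. Its leading transcript Atrip-205 shares exons with Trex1 on the same strand, so reads of the 2 genes cannot be told apart there. Chek1, the kinase below ATR, was at 3.10 TPM in replicate 2 and 3.03 TPM in replicate 1, with 2.42 and 2.34 TPM on coding transcripts, and Chek2, the kinase below ATM, at 2.14 and 1.69 TPM.

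Mismatch repair held the clearest contrast between the scales. Msh6 and Msh3 encode alternative MutS partners, MSH6 for single mismatches and MSH3 for longer loops. Msh3 (ENSMUSG00000014850.11, mm10 chr13:92211872-92355003, minus strand) was at 33.82 TPM in replicate 2 and 32.94 TPM in replicate 1, and Msh6, with 1 transcript, at 27.98 and 28.04 TPM. The genes thus looked alike, with a ratio of Msh6 to Msh3 of 0.827 in replicate 2 and 0.851 in replicate 1. On coding transcripts Msh3 had 1.09 TPM in replicate 2 and 1.02 TPM in replicate 1, rank 28 instead of rank 2, and the ratio was 25.7 and 27.5. By expected counts, without the length, Msh6 had 8126 in replicate 2 and 6436 in replicate 1, and Msh3 had 1304 and 956.

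The Msh3 level rested on Msh3-207, a decay target of 534 bases and 4 exons, at 31.31 TPM in replicate 2 and 30.85 TPM in replicate 1, which is 92.59% and 93.63% of the gene. All of its bases lie in exons of coding transcripts, and it holds a joint from exon 2 that passes over 15 exons of Msh3-202 and 96422 bases. The joints are printed because they tell the transcripts apart, with the upstream exon in lower case and the downstream exon in capitals, from the GENCODE M21 transcripts of GRCm38; the same is given for Rad50-204 and Rad51c-203, which each pass over 1 coding exon.
Msh3-207: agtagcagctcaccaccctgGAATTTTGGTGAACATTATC
Msh3-202: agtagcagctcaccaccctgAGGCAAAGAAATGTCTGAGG
Rad50-204: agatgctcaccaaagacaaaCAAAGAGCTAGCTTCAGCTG
Rad50-201: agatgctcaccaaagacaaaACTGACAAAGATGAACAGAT
Rad51c-203: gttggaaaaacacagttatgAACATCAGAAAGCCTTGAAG
Rad51c-202: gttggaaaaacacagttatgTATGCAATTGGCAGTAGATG
In each pair the upstream bases are the same and the downstream bases differ.

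Brca1-202 and Atr-210 differ from coding transcripts in another way, since their last exon runs on past a splice donor into the intron. The exon is in lower case and the intron in capitals, and both introns open with the GT of a splice donor.
Brca1-202: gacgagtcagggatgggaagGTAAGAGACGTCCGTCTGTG
Atr-210: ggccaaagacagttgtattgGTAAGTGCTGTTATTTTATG
Intron bases made up 209 of the 539 bases of Brca1-202 and 606 of the 982 bases of Atr-210. The deposited tables hold no reads, so which bases of these transcripts were covered was not tested.

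**Figure D3:**
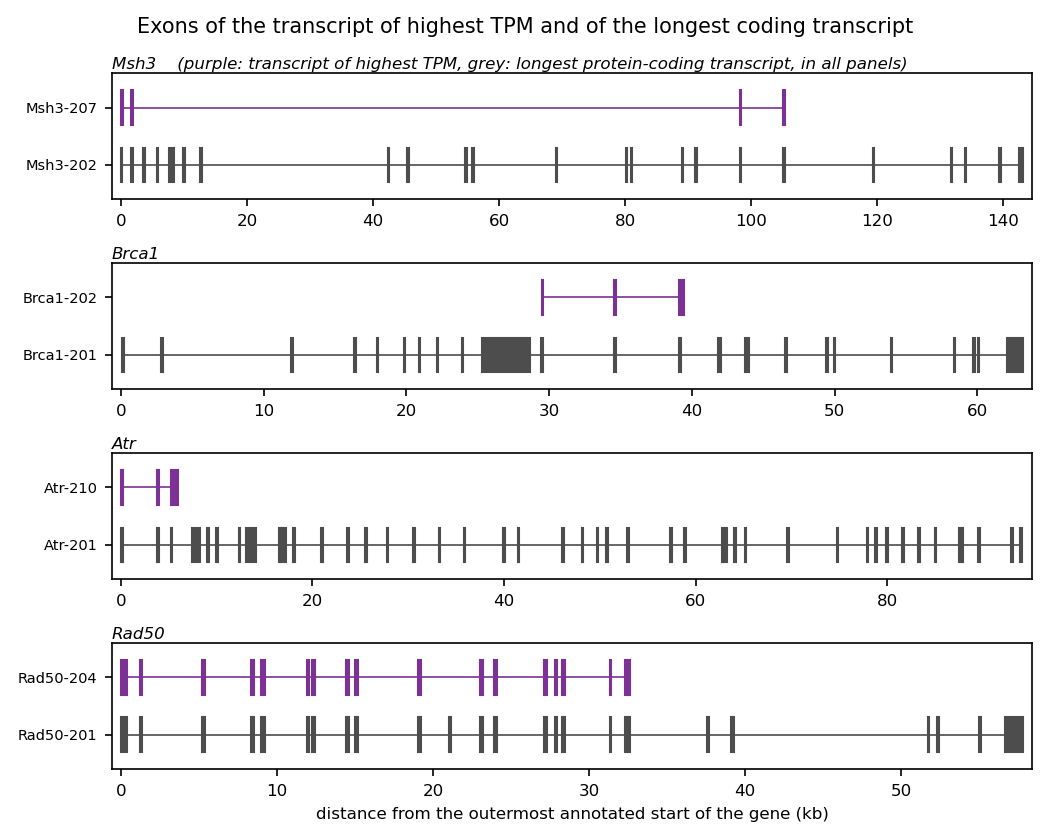
Exons (boxes) of the transcript with the highest TPM, in purple, above the longest protein-coding transcript, in grey, for Msh3, Brca1, Atr and Rad50, by distance in kilobases from the outermost annotated start of the gene. Msh3-207 joins 2 exons at the start to 2 far downstream, Brca1-202 has 3 exons in the middle, Atr-210 has 3 at the start, and Rad50-204 ends before the last exons of Rad50-201.

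The remaining mismatch repair genes were low. Exo1, the nuclease that removes the faulty strand, was at 2.61 TPM in replicate 2 and 2.56 TPM in replicate 1, with 2.25 and 1.85 TPM on coding transcripts. Mlh3, a minor MutL partner, was at 0.88 TPM in replicate 2 and 0.91 TPM in replicate 1. Pms2, the main endonuclease subunit of MutL, was at 2.56 TPM in replicate 2 and 0.84 TPM in replicate 1, the widest gap in the group. On coding transcripts Pms2 was at 0.270 TPM in replicate 2 and 0.320 TPM in replicate 1, with Mlh3 above it on that scale in both libraries. The gap in Pms2 lay on Pms2-207, a retained-intron transcript at 1.30 TPM in replicate 2 and 0.43 TPM in replicate 1, and on Pms2-201, a processed transcript at 0.90 TPM in replicate 2 and listed at 0 in replicate 1. In the later annotation Pms2-207 shares exons with Gm42421 and Rsph10b on the same strand. The deposited values list the Gm42421 transcript under Pms2, at 0 TPM. The expected counts of Pms2 were whole numbers, 827 in replicate 2 and 248 in replicate 1, and sharing of reads between the genes was not tested. The replicate 1 value of Pms2 fell outside its own deposited interval of 0.976 to 1.55 TPM.

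To compare the libraries, the split of each gene's expected counts was set against the split of the TMM-scaled totals in an exact binomial test (two-sided, Benjamini-Hochberg adjustment over the 11636 genes tested). This speaks of the libraries alone, since it allows for counting error and no other spread. Of the 37 genes, 2 differed by at least 2-fold at an adjusted p under 0.05, both higher in replicate 2, while 5.77% of all genes tested did so in either direction and 3.92% in that direction. Pms2 had 827 expected counts in replicate 2 and 248 in replicate 1, giving a log2 ratio of 1.24 (adjusted p 6.29e-36 by the exact test). Fancl had 102 expected counts in replicate 2 and 34 in replicate 1, giving a log2 ratio of 1.09 (adjusted p 1.70e-04 by the exact test). With a spread between libraries estimated over all genes (common coefficient of variation 0.224), edgeR's exact test called neither, with adjusted p-values of 0.387 for Pms2 and 0.984 for Fancl.

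At any fold, 23 of the 37 genes passed the exact test, 16 higher in replicate 2 and 7 higher in replicate 1, beside 64.8% of all genes tested with 32.4% in each direction. The median log2 ratio of the 37 genes was 0.21, beside 0.01 for all genes tested. Xrcc2, with 1137 expected counts in replicate 2 and 435 in replicate 1, reached a log2 ratio of 0.89, and Palb2, with 1084 and 521, reached 0.56. At the other end Ube2t, with 1059 expected counts in replicate 2 and 937 in replicate 1, had a log2 ratio of -0.32 once the totals were allowed for. Bard1, with 3101 expected counts in replicate 2 and 2191 in replicate 1, had a log2 ratio of 0.00.

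For a few genes the counts and the TPM gave different ratios. Atm, with 831 expected counts in replicate 2 and 331 in replicate 1, had a log2 count ratio of 0.83 beside a log2 TPM ratio of 0.17. The effective length that turns counts into TPM was 9858 bases for Atm in replicate 2 and 5588 bases in replicate 1, and Atm-201 held 100% of the gene in replicate 2 and 54.55% in replicate 1. Brca1 went the other way, with a log2 count ratio of 0.50 and a log2 TPM ratio of 1.10, and effective lengths of 817 bases in replicate 2 and 1114 bases in replicate 1. By the deposited TPM intervals, 15 of the 37 genes were apart between the libraries, all 15 higher in replicate 2, beside 43.4% of detected protein-coding genes that were apart in that direction and 21.8% in the other. The median log2 TPM ratio was 0.34 for the 37 genes and 0.12 for detected protein-coding genes.

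**Figure D4:**
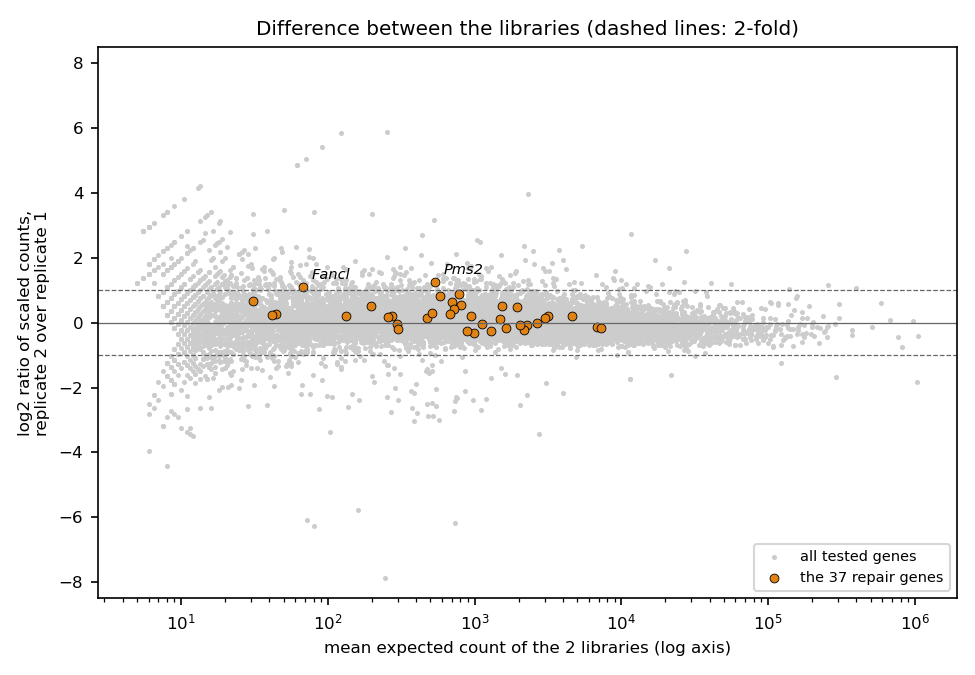
Log2 ratio of TMM-scaled expected counts, replicate 2 over replicate 1, against the mean expected count (log axis) for 11636 genes in grey and the 37 repair genes in orange, with dashed lines at 2-fold. Pms2 at 1.24 and Fancl at 1.09 lie above the upper line and none of the 37 lies below the lower one.

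Many repair genes share their start region with another gene, and 11 of the 37 had a protein-coding neighbour that starts within 1000 bases on the other strand and points away, beside 6.77% of all protein-coding genes. In 9 of the 11 pairs the neighbour was the higher gene in both libraries. Pms2 at 2.56 TPM in replicate 2 and 0.84 TPM in replicate 1 lies 117 bases from Aimp2, a tRNA synthetase scaffold at 90.86 and 67.39 TPM. Chek2 lies 202 bases from Hscb, an iron-sulphur cluster chaperone at 57.24 TPM in replicate 2 and 50.70 TPM in replicate 1. Aimp2 exceeded Pms2 35.5-fold in replicate 2 and 80.2-fold in replicate 1 by gene TPM. Fancd2 lies 30 bases from Emc3, a membrane insertase subunit at 14.74 TPM in replicate 2 and 16.58 TPM in replicate 1, and Brca1 lies 194 bases from Nbr1, an autophagy receptor gene at 46.37 and 43.27 TPM.

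Palb2 lies 56 bases from Dctn5, a dynactin subunit at 6.38 TPM in replicate 2 and 5.70 TPM in replicate 1. Atm lies 307 bases from Npat, a histone gene activator at 1.72 TPM in replicate 2 and 1.13 TPM in replicate 1. Both members of the Atm pair, and of the pair of Fancb with Mospd2, were low in both libraries. Zfyve26, the neighbour of Rad51b, was at 6.13 TPM in replicate 2 and 3.48 TPM in replicate 1, and Pomgnt1, the neighbour of Rad54l, at 6.27 and 5.46 TPM. Xrcc3 was above Zfyve21, which was at 12.06 TPM in replicate 2 and 12.73 TPM in replicate 1. Rad51c lies 111 bases from Tex14, a germ cell gene listed at 0 in both libraries.

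**Figure D5:**
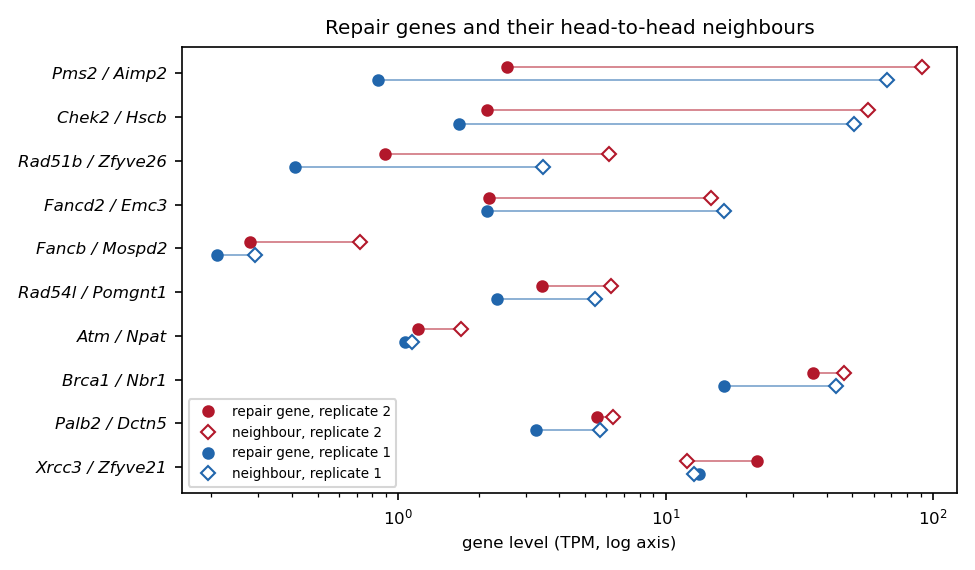
Level in TPM (log axis) of repair genes (filled circles) and of their head-to-head protein-coding neighbours (open diamonds), replicate 2 in red above replicate 1 in blue; the pair of Rad51c with Tex14 is left out because Tex14 is listed at 0. The diamond lies right of the circle in all pairs but Xrcc3 with Zfyve21.

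RefSeq start windows of 300 bases (250 before the start and 50 after, GRCm38.p6) were at hand for 31 of the 37 genes. They had a median GC content of 59.7% and a median of 23 CpG pairs, beside 52.7% and 7.0 over all 27025 windows. E2F-type words, which stand for the binding letters of the S-phase activators, were searched as TTTCCCGC, TTTGGCGC, TTTCGCGC and TTTGCCGC on both strands. They occurred in 7 of the 31 windows, or 22.6%, beside 2.32% of all windows. The stretches of Bard1, Brca2, Chek2, Fancg, Msh6 and Rad51c that hold them are shown with the E2F words in capitals, read along the strand of the gene; a match is a description of these letters and not a binding site.
Bard1, chr1:71103158-71103197, minus strand: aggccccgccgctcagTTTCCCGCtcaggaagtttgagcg
Brca2, chr5:150522437-150522476, plus strand: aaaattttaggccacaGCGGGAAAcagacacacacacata
Chek2, chr5:110839815-110839854, plus strand: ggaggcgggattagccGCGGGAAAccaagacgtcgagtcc
Fancg, chr4:43010330-43010369, minus strand: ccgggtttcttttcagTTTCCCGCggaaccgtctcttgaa
Msh6, chr17:87975049-87975088, plus strand: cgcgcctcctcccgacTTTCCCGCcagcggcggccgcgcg
Rad51c, chr11:87404472-87404511, minus strand: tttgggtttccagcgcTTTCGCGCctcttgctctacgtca
The window of Msh3 is the other one that holds such words. The gene levels of these 7 ran from 0.75 TPM (Rad51c) to 33.82 TPM (Msh3) in replicate 2 and from 0.59 TPM (Rad51c) to 32.94 TPM (Msh3) in replicate 1.

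Other words were counted the same way. CCAAT, on either strand, occurred in 71.0% of the 31 windows and 37.9% of all windows. The GC box GGGCGG occurred in 64.5% and 35.9%, the ETS word CCGGAAG in 19.4% and 9.12%, and the NRF1 word GCGCATGC in 12.9% and 2.80%. GATA words, AGATAA and TGATAA, went the other way: 1 of the 31 windows, that of Slx4, held one, or 3.23%, beside 19.0% of all windows. The 31 windows and all windows differ in GC content, as given above, and words were not counted at matched composition. The part of base composition in any of these shares was not tested.

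The windows of Pms2 and Chek2 are shown whole, because in them the member and a neighbour start back to back at very different gene levels. Capitals mark E2F, CCAAT, GC box and ETS words on either strand.
Pms2, chr5:143909751-143910050, plus strand: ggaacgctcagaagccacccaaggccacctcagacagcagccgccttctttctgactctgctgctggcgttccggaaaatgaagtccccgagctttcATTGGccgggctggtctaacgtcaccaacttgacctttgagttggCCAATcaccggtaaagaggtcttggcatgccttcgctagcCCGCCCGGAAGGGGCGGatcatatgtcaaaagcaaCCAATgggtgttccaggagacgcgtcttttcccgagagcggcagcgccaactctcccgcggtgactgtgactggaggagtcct
Chek2, chr5:110839733-110840032, plus strand: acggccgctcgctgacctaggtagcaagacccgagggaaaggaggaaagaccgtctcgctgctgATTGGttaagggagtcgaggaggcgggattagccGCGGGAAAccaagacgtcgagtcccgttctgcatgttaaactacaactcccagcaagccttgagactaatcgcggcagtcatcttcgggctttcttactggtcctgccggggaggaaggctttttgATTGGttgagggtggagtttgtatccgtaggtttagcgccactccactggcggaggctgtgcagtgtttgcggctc
The Pms2 window holds 3 CCAAT words, 2 GC boxes and 1 ETS word, and the Chek2 window holds 2 CCAAT words and 1 E2F word.

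Of 59 partner genes of these pathways outside the set, all 59 were detected by gene TPM. They were 12 Fanconi, 21 recombination, 15 checkpoint and 11 mismatch repair partners. On coding transcripts Rad52 was listed at 0 in both libraries, and Slx1b, Rad54b, Hus1, Rnf8 and Rfc1 were below 1 TPM in both. Fan1, Trp53bp1 and Recql were below 1 TPM on that scale in replicate 1, and the other partners reached it in both libraries. The median gene level of all 59 was 19.2 TPM in replicate 2 and 16.1 TPM in replicate 1. By list, the medians in replicate 2 and replicate 1 were 20.1 and 12.9 TPM for Fanconi, 11.2 and 8.26 TPM for recombination, 19.2 and 18.9 TPM for checkpoint, and 65.4 and 38.4 TPM for mismatch repair partners. Usp1, which removes ubiquitin from the clamp, was at 567.57 TPM in replicate 2 and 773.23 TPM in replicate 1. That level came from 10957 and 11053 expected counts on an effective length of 273 bases in replicate 2 and 256 bases in replicate 1, and Fancd2 had 578 and 368 expected counts. H2afx, the histone that marks breaks, was at 768.95 TPM in replicate 2 and 982.95 TPM in replicate 1, and Swi5, a recombination mediator subunit, at 436.25 and 346.03 TPM. Pold1, the polymerase that refills the excised strand, was at 317.31 TPM in replicate 2 and 336.34 TPM in replicate 1. Coding transcripts held 174 and 178 TPM of this. By gene TPM the lowest of the 59 was Recql, a helicase gene, at 1.51 TPM in replicate 2 and 1.10 TPM in replicate 1. On the same scale the lowest Fanconi partner was Fan1, a crosslink nuclease, at 1.82 TPM in replicate 2 and 1.63 TPM in replicate 1. The lowest mismatch repair partner by gene TPM was Pms1, a minor MutL gene, at 2.98 and 2.07 TPM.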

How the data were processed

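The samples were 2 poly(A) RNA libraries of 1 group, G1E. Per the deposited descriptions, the authors aligned each library to the transcriptome by itself (assembly mm10, gene annotation M4). Names of aligner and counter are not given in the sources used, nor is the use of strand. The authors deposited expected counts, TPM, FPKM, intervals of the TPM and posterior means per gene and per transcript, and the share of a gene's TPM on each transcript in percent. The level of the intervals is not stated in the files. Expected counts summed to 80658648 (replicate 2) and 61982634 (replicate 1). From there, entries were matched to GENCODE M21 (42462 of 43346), which gave symbols, transcript types and neighbours; 205 of the 228 member transcripts had equal length in both. Shares on protein-coding transcripts were summed from the deposited values. Expected counts were rounded, genes with 10 or more counts in either library were kept, and totals were scaled by TMM (factors 1.04 in replicate 2 and 0.960 in replicate 1; edgeR 4.0.16, R 4.3.3). The exact conditional binomial test (SciPy 1.17.1) was run on simulated Poisson counts. Those counts hold counting error alone, as the test assumes, so that run cannot speak for further spread between real libraries. A quasi-likelihood fit has no residual degrees of freedom here. Alternatives used DESeq2 1.42.0 size factors, edgeR's exact test, other filters, folds and detection thresholds. Promoter windows came from RefSeq (GRCm38.p6). Every member was named, with neighbours within 1000 bases and some of the highest and lowest partners; not every gene that rule picks is described. Members and lists were chosen with earlier results of these data known.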

Additional observations from a re-analysis of the deposited data

How the results depend on the processing

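Values were recomputed under other settings, and 40 stayed close to the value reported while 13 moved. A change of direction was not scored, and most of these values are counts without one. The median log2 ratio of the 37 genes stayed positive under every setting. Genes detected numbered 17 of 37 at 5 TPM instead of 29 at 1 TPM, and meiotic genes 2 instead of 5. With 1 library left out, 29 to 32 genes were detected and the median level was 4.18 to 6.99 TPM. That median was scored as close within the SD of the same 2 libraries, which leaving 1 out cannot exceed. Also with 1 library left out, 11 to 12 genes had under 50% of their TPM on coding transcripts. That last count, 11 in the report, was 7 when decay targets were added to the coding transcripts and 7 by shares of expected counts, an alternative chosen after seeing the data. Of the 37 genes, 23 differed between the libraries with no fold requirement, 0 at 4-fold and 0 by edgeR's exact test (24 had an unadjusted p under 0.05 by the exact binomial test), instead of 2. Over all genes the calls numbered 421 with 50 or more counts, 7541 with no fold requirement, 176 at 4-fold and 114 by edgeR, instead of 671. The median log2 ratio was 0.33 by total counts and 0.34 by TPM, instead of 0.21. No paired analysis was possible because there is 1 group, so replicate numbers pair nothing. Depth limits the genes of fewest counts most: Fancb, Rad51b and Rad51c.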

Other observations

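Germ line relatives of these genes were mostly not detected. Of 19 meiotic recombination genes matched, 5 were detected, beside 40.0% of all protein-coding genes. The 5 were Rec8, Msh5, Hormad2, Mnd1 and Prdm9. Dmc1, Spo11 and Sycp3 were listed at 0 in both libraries, as were the germ cell markers Dazl and Ddx4. Rec8, the meiotic cohesin subunit, was at 103.74 TPM in replicate 2 and 74.44 TPM in replicate 1. By gene TPM it was above every repair gene of the 37 but Fance in replicate 1, and above all 37 in replicate 2. Levels on coding transcripts are not given here for the meiotic genes. Msh5, a meiotic MutS gene, was at 11.72 TPM in replicate 2 and 11.20 TPM in replicate 1, with its partner Msh4 at 0 and 0.01 TPM. Hormad2, a chromosome axis gene, was at 8.73 TPM in replicate 2 and 3.30 TPM in replicate 1.

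The longest coding transcripts of the 37 repair genes had a median GC content of 46.2%, beside 50.7% for detected protein-coding genes, and a median length of 3946 bases, beside 2907 bases. Across the 37 genes, coding TPM had a Spearman correlation of 0.53 with GC content and -0.28 with length, where genes share their libraries and are not independent.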
